A study of Mus musculus with 474 samples.

Results

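Fibro-adipogenic progenitors (FAPs) are the interstitial mesenchymal cells of skeletal muscle, and the 9 genes described here are ones by which they are commonly recognised: Pdgfra, Cd34, Ly6a, Thy1, Dcn, Lum, Dpt, Mfap5 and Gsn. The genes were chosen by name, with earlier results of these data known, and they are 9 of the 20612 genes in the deposited expression tables. All 9 passed the filter on low counts. RNA was sequenced from the skeletal muscle (gastrocnemius, by the methods of the study) of adult Diversity Outbred (DO) mice, each an outbred animal with its own mixture of 8 inbred founder genomes. Each animal gave 1 library, and all animals were kept on a high-fat, high-sugar diet (labelled 45 percent fat), so no group had another diet. The library titles also carry 1 of the numbers 17, 18, 19, 21 and 23, read here as the DO generation. This is an assumption, and 17 and 23 are not among the generations that the methods of the study name. The 10 groups of sex and generation held 45 to 49 females and 46 to 50 males each. The labels name no transgene, knockout or drug.

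FAPs lie between the muscle fibres, where they make much of the connective tissue of the muscle and support the satellite cells that repair it. Under other conditions the same cells can give rise to fibroblasts that deposit scar or to adipocytes that infiltrate the muscle. They are sorted by surface proteins of the kind encoded by Pdgfra, Ly6a, Cd34 and Thy1, and in expression data they stand out by secreted matrix proteins such as decorin and lumican. None of these genes is private to FAPs. Endothelial cells also carry the proteins of Cd34 and Ly6a, T cells carry the protein of Thy1, tendon cells make decorin and lumican, and gelsolin, the product of Gsn, is made in muscle fibres too. In whole muscle, fewer cells of a type and less RNA per cell cannot be told apart.

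Total counts per library were 35902446 to 165723762, with a median of 79308916. The lowest count of any of the genes in any library was 136, for Thy1. The tissue label was met, since the 8 fast-fibre genes examined summed to between 96124 and 183252 CPM (counts scaled to a common library total) in each library. In 5 libraries the levels of the sex-linked genes Xist and Ddx3y were outside the limits set for the labelled sex (females, Xist of at least 10 CPM and Ddx3y of at most 0.1 CPM; males, Ddx3y of at least 10 CPM and Xist of at most 10 CPM), and in 34 libraries (24 female and 10 male) the T cell genes summed to over 4 CPM. Both sets are left out in turn where results could rest on them.

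Gene positions are on GRCm38. Dcn (chr10:97479609-97518143, plus strand) and Lum (chr10:97565128-97572703, plus strand) are neighbours, 46984 bases apart with 0 protein-coding genes between them. The other genes lie apart from each other: Pdgfra at chr5:75152292-75198215, Gsn at chr2:35256380-35307892, Dpt at chr1:164796644-164824266, Cd34 at chr1:194938819-194961279, Mfap5 at chr6:122505845-122529290, Ly6a at chr15:74994877-74998031 and Thy1 at chr9:44043384-44048579. Ly6a alone among these 7 is on the minus strand. Whether the counting used strand was not stated, and Pdgfra, Gsn, Dpt and Cd34 each overlap a minor gene model. The highest mean level among these was 0.721 CPM, for Gm16897 in Cd34, which is 1.48% of the Cd34 level.

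RefSeq start sites (GRCm38.p6) were matched for 4 of the 9 genes, and the 250 bases upstream of the start are shown for them. Any bearing of these bases on the levels or correlations of the genes was not tested. Capitals mark matches to any of 4 motifs, searched on both strands. The GC box was spelled GGGCGG. The TATA box was spelled TATAAA. The AP-1 site was spelled TGACTCA, and the CCAAT box by its 5 letters. All 4 genes are on the plus strand.
Pdgfra, chr5:75152001-75152250: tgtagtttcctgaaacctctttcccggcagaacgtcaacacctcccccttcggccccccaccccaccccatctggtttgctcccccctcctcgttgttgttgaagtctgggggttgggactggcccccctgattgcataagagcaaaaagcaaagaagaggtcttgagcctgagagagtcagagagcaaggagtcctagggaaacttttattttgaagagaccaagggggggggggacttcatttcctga
Cd34, chr1:194938571-194938820: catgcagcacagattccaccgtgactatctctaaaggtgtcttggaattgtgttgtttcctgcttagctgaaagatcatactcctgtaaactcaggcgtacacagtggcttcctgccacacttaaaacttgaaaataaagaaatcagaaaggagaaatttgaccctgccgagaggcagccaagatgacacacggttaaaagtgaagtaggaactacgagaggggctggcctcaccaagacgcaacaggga
Dpt, chr1:164796413-164796662: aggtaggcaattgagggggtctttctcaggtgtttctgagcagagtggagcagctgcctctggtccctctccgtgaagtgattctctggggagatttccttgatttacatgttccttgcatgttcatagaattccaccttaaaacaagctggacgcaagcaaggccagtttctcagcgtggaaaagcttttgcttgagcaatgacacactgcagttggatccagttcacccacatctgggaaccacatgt
Gsn, chr2:35256109-35256358: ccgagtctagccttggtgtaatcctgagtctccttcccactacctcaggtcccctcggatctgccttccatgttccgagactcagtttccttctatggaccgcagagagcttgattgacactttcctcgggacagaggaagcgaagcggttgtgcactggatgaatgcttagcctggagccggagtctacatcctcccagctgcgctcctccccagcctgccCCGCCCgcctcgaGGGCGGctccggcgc
The Gsn start shown, the first of 3 that RefSeq gives, held 2 GC boxes, while the windows of Pdgfra, Cd34 and Dpt held none of the 4 motifs. The other two Gsn starts held 2 and 4 matches to the GC or CCAAT box. Among 32851 mouse promoter windows of the same length, 32.7% held a GC box, 33.8% a CCAAT box, 12.4% a TATA box and 4.46% an AP-1 site. The match is of letters alone, and binding was not measured.

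Compared per length of exon, the 9 genes spanned about 2 orders of magnitude. Gsn had the highest level (251.3 ± 38.9 CPM per kilobase, mean ± SD over all animals), followed by Dcn (58.9 ± 7.87), Dpt (24.4 ± 5.002), Ly6a (19.7 ± 5.23), Lum (8.86 ± 2.43), Cd34 (6.68 ± 0.803), Mfap5 (3.88 ± 0.725), Pdgfra (3.62 ± 0.552) and Thy1 (2.34 ± 0.803). Gsn exceeded Dcn, and Dcn exceeded Dpt, in 100% of animals. The order was looser further down. Dpt exceeded Ly6a in 79.5% of animals, Lum exceeded Cd34 in 84.4%, and Mfap5 exceeded Pdgfra in only 63.7%, so that the levels of Mfap5 and Pdgfra did not differ beyond their spread. In the following, levels are CPM after scaling by trimmed mean of M-values (TMM), without division by length.

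The genes also differed in how much they varied from animal to animal. Cd34 and Dcn were the steadiest, with SDs of 12.01% and 13.4% of the mean, and Thy1 (34.3%), Lum (27.4%) and Ly6a (26.6%) were the most variable. The ratio of the highest to the lowest animal was 2.07 for Cd34 and 9.83 for Thy1. A single female of generation 19 had the lowest level of Pdgfra (15.3 CPM, the next lowest being 22.01), Dcn (212.9 CPM, next 237.5) and Dpt (17.04 CPM, next 25.7). The same animal was also low for Lum (11.3 CPM, place 9 from the lowest) and Gsn (591.6 CPM, place 22), but lay nearer the middle for Mfap5 (13.7 CPM) and Cd34 (47.002 CPM).

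Most of the genes were slightly lower in males. Of the 9, 7 were lower (Thy1, Lum, Mfap5, Pdgfra, Dpt, Gsn and Cd34), 1 was higher (Dcn), and Ly6a did not pass the test (quasi-likelihood F-test of edgeR with generation as covariate, Benjamini-Hochberg adjustment over 18823 genes, adjusted p under 0.05). Over all tested genes, 30.6% were called lower and 24.4% higher in males, and the median log2 difference of the 9 was -0.10 against -0.01 over all genes. Differences between the sexes were thus common in this tissue. In each gene the range of one sex overlapped that of the other over most of its length.

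**Figure D1:**
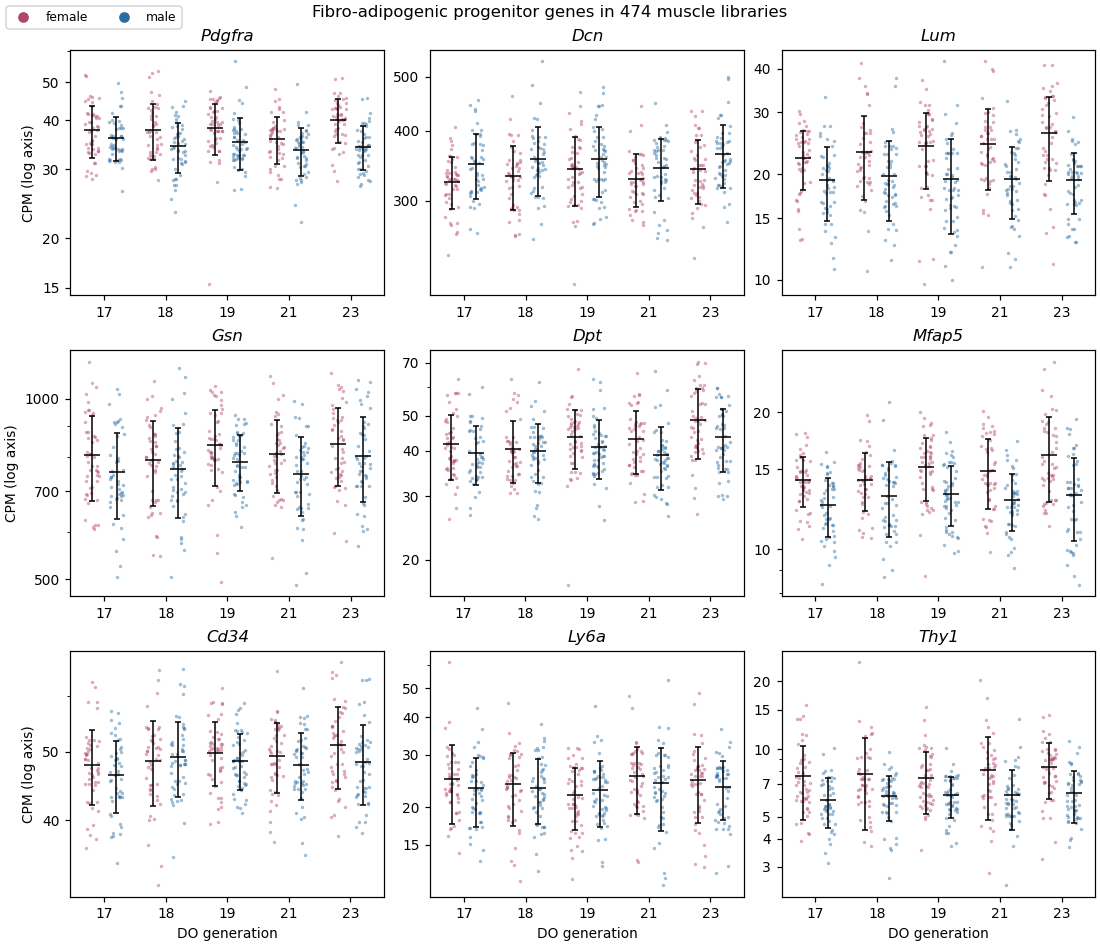
Levels of the 9 genes in each library, in CPM on a log axis, by DO generation on the horizontal axis and by sex. Points are animals, and bars are the mean ± SD of each of the 10 groups. Pdgfra, Lum, Gsn, Dpt, Mfap5 and Thy1 have the higher mean in females in each generation, while Dcn has the higher mean in males in each generation.

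Among the surface proteins, Pdgfra encodes the alpha receptor for platelet-derived growth factor, the marker by which FAPs are most often defined. Its level was 15.3 to 53.3 CPM in females, with a median of 37.7, and 22.01 to 56.6 CPM in males, with a median of 34.1. The ranges overlapped, but 77.8% of males were below the median female. The log2 difference, males minus females, was -0.13 ± 0.02 (SE, adjusted p = 1.24e-10), and it was negative within each of the 5 generations (-0.23 to -0.06).

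Thy1, a small surface glycoprotein of fibroblasts and T cells, had the largest estimate of the 9 over all libraries, though it lay within the SEs of that of Lum and below it without the libraries of high T cell genes. Females ran from 2.82 to 24.3 CPM with a median of 7.23, and males from 2.48 to 13.7 CPM with a median of 6.003. The highest females stood well above the highest males, and 75.7% of males were below the median female. The log2 difference was -0.34 ± 0.04 (adjusted p = 6.60e-16). All 6 T cell genes measured were called lower in males as well. Their sum was 0.121 to 123.001 CPM in females, with a median of 0.725, and 0.0609 to 47.8 CPM in males, with a median of 0.577. The typical library of either sex was thus low, and the sum exceeded 4 CPM in 24 females and 10 males only. Without the 34 libraries of high T cell genes, the Thy1 difference was -0.24 ± 0.03 (adjusted p = 1.08e-10), with a median of 6.99 CPM in the remaining females and 5.91 CPM in the remaining males.

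Cd34, a sialomucin of progenitors and endothelium, and Ly6a, which encodes the stem cell antigen Sca-1, differed least. Cd34 was 32.3 to 67.01 CPM in females (median 49.7) and 34.8 to 65.6 CPM in males (median 47.97), which are nearly the same ranges. Its log2 difference was -0.04 ± 0.02 (adjusted p = 0.0317), and no single generation passed the test. Ly6a was 11.3 to 61.1 CPM in females (median 23.7) and 10.96 to 53.3 CPM in males (median 22.95), with a log2 difference of -0.05 ± 0.03 (adjusted p = 0.245). When libraries were scaled by total count alone, Ly6a also passed (-0.08, adjusted p = 0.0407).

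Dcn and Lum, the neighbours on chromosome 10, went in opposite directions. Both encode small leucine-rich proteoglycans that bind collagen fibrils. Dcn was 212.9 to 468.5 CPM in females, with a median of 330.5, and 255.6 to 532.98 CPM in males, with a median of 351.2, and 32.6% of males were below the median female. Lum was 9.72 to 42.004 CPM in females, with a median of 23.5, and 9.98 to 42.03 CPM in males, with a median of 18.9, and 82.4% of males were below the median female. The log2 difference was 0.08 ± 0.02 for Dcn (adjusted p = 4.64e-06) and -0.31 ± 0.03 for Lum (adjusted p = 1.13e-17). Each kept its sign within all 5 generations and all 5 blocks of library numbers. For Dcn the difference was 0.06 to 0.11 within generations and 0.00 to 0.12 within blocks, and it was called in 1 of the 5 generations (generation 17) and 3 of the 5 blocks. For Lum it was called in all 5 of both.

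The remaining genes encode dermatopontin (Dpt), which helps to assemble collagen and decorin in the matrix, a microfibril-associated protein (Mfap5), and the actin-severing protein gelsolin (Gsn). Mfap5 was 8.70 to 25.9 CPM in females (median 14.5) and 8.34 to 21.04 CPM in males (median 12.9), and 77.4% of males were below the median female. Its log2 difference was -0.20 ± 0.02 (adjusted p = 4.54e-17). Dpt was 17.04 to 70.6 CPM in females (median 42.03) and 25.7 to 66.7 CPM in males (median 39.3), with a difference of -0.10 ± 0.03 (adjusted p = 0.000345). Gsn was 493.9 to 1152 CPM in females (median 807) and 488.8 to 1125 CPM in males (median 758), with a difference of -0.08 ± 0.02 (adjusted p = 0.000139). For both Dpt and Gsn the sexes overlapped nearly throughout.

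Genes of several other cell types also differed between the sexes. Of 8 adipocyte genes, 7 were lower and 1 was higher in males, with a median log2 difference of -0.51, and their sum was 92.1 to 1315 CPM in females and 104.96 to 722 CPM in males. Slow-fibre genes were lower in males in 7 of 7 cases (median -0.51) and tendon genes in 5 of 7 (median -0.11), while 11 of 12 endothelial genes (median 0.10) and 7 of 8 mural genes (median 0.10) were higher. With adipocyte, endothelial and slow-fibre scores together as covariates, Dpt was at 0.01 ± 0.02 (adjusted p = 0.714) and Gsn at -0.05 ± 0.02 (adjusted p = 0.0725). The other 6 called genes kept both call and direction in that fit, in which 44.7% of all tested genes were called. With T cell, macrophage and tendon scores as covariates, Cd34 was no longer called (-0.02 ± 0.01, adjusted p = 0.157), and Dcn was at 0.11 ± 0.02 (adjusted p = 6.27e-11). The part of these cell types in each difference was not tested further.

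**Figure D2:**
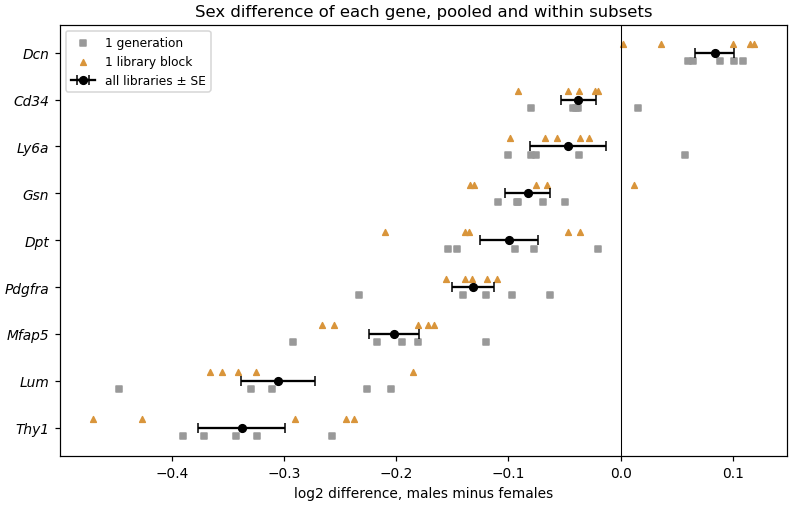
Log2 difference between the sexes (males minus females) for each gene. Circles with bars give the estimate ± SE over all libraries, squares the estimate within each of 5 generations, and triangles the estimate within each of 5 blocks of library numbers. Over all libraries Dcn alone lies to the right of 0. Within single generations or blocks Ly6a (up to 0.058), Cd34 (0.016) and Gsn (0.012) reach the right of 0 as well, and the estimates for Thy1, Lum, Mfap5, Pdgfra and Dpt lie to the left of 0 in each subset.

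Other genes of the same cells and their matrix were divided in direction as well. Of 26 further fibroblast and FAP markers, 15 were lower and 6 higher in males, and 5 were not called. The largest difference toward lower levels in males was in the complement gene C3 (76.9 ± 42.8 CPM in females and 51.5 ± 23.8 CPM in males, log2 difference -0.58 ± 0.07, adjusted p = 1.45e-15). The largest toward higher levels was in Hsd11b1, which activates glucocorticoids (5.25 ± 1.74 and 6.88 ± 1.34 CPM, log2 difference 0.39 ± 0.03, adjusted p = 4.90e-27). Among 9 other small leucine-rich proteoglycans, the family of Dcn and Lum, 5 were lower and 3 were higher in males. Fmod was the lowest of these (-0.25 ± 0.03, adjusted p = 4.45e-12) and Aspn the highest (0.18 ± 0.04, adjusted p = 4.72e-05).

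Collagen and matrix genes gave no single direction, with 4 of 17 higher (Col4a2, 0.17 ± 0.02, adjusted p = 6.70e-12), 5 lower (Postn, -0.41 ± 0.05, adjusted p = 8.52e-14) and 8 not called. Genes of the PDGF ligands and the other receptor were on the side opposite to Pdgfra, as were most of the endothelial and mural genes given above, whose part in this was not tested. Pdgfa, Pdgfb, Pdgfc and Pdgfd, and the other receptor Pdgfrb, were higher in males in 5 of 5 cases, most of all Pdgfa (12.1 ± 2.01 CPM in females and 14.2 ± 2.34 CPM in males, log2 difference 0.23 ± 0.02, adjusted p = 7.55e-22). Of 13 genes of the TGF-beta pathway, 6 were higher and 2 lower in males, and Ltbp1 had the largest difference (0.26 ± 0.02, adjusted p = 5.25e-28). Of 6 Ly6 family genes, Gpihbp1 alone was called (0.09 ± 0.02, adjusted p = 0.000821).

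Differences between generations were small. Of the 9 genes, 2 passed the test, Dpt (adjusted p = 0.000317) and Mfap5 (adjusted p = 0.0401), against 7.56% of all tested genes. Mean Dpt was 40.3 to 42.4 CPM in generations 17, 18, 19 and 21 and 46.05 ± 9.92 CPM (SD, n = 95) in generation 23. Mean Mfap5 was lowest in generation 17 (13.4 ± 2.01 CPM, n = 94) and highest in generation 23 (14.6 ± 3.43 CPM, n = 95). Both were called within females (adjusted p = 0.0160 and 0.0396) and neither within males (adjusted p = 0.268 and 0.860), but generation differences were not shown to differ between the sexes, by the interaction test given next. Of all tested genes, 2.87% were called within females and 2.76% within males. Neither Dpt nor Mfap5 was called once adipocyte, endothelial and slow-fibre scores were covariates (0.0810 and 0.0917).

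The sex difference did not differ detectably between generations. In the interaction test of edgeR, 0 of the 9 genes were called, against 0.531% of all tested genes, and 0 had an unadjusted p under 0.05. Limma on the deposited scores called 0 of all 18823 tested genes, so its 0 among the 9 says nothing about them in particular. There too, 0 of the 9 had an unadjusted p under 0.05. The smallest unadjusted p was 0.0705, for Pdgfra, whose difference was -0.06 in generation 17 and -0.23 in generation 23. The blocks of library numbers, which may be preparation plates, differed for 5 of the 9 genes (Dcn, Gsn, Pdgfra, Lum and Ly6a), against 47.4% of all tested genes. Which genes these were turned on the scaling. With total count alone the 5 were Dcn, Gsn, Ly6a, Mfap5 (adjusted p = 0.0415 in edgeR, against 0.0509 with TMM) and Thy1 (0.0467, against 0.0548), while Pdgfra (0.0909) and Lum (0.122) were not called. Without the 5 libraries outside the limits set for the sex-linked genes, Mfap5 was called beside the first 5 (0.0466). Block 1 had the highest mean of Dcn (370.6 ± 52.2 CPM, against 331.04 to 343.8 CPM in the others) and of Pdgfra (38.3 ± 6.04 CPM). It also had the lowest mean of Gsn (746 ± 118.6 CPM) and of Ly6a (21.6 ± 6.28 CPM). With block as covariate the same 8 genes were called between the sexes.

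Sex, generation and block left most of the spread between animals in place. Sex accounted for 0.428% (Ly6a) to 14.9% (Mfap5) of the variance of the deposited score, the variance stabilising transform (VST) of the counts. Generation accounted for 0.695% (Lum) to 5.37% (Dpt), and block for 1.14% (Dpt) to 10.2% (Dcn). The correlation among animals was therefore examined on the residuals of the VST after sex and generation.

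Over all animals most pairs of the genes rose and fell together. Of the 36 pairs, 31 were positively correlated and 0 negatively (Pearson r, 2-sided permutation test with 100000 resamples, Benjamini-Hochberg adjustment over 36 pairs). All called pairs had r of at least 0.108, and of the 177143253 pairs of all tested genes 13.7% had an r at least as high and 13.4% one at least as low. The median r was 0.302, against -0.001 over those pairs. The first principal component of the 9 genes held 37.5% of their variance. By the same measure, 8 of the 16 other lists had a higher median r and 8 a lower one, so the 9 genes stood in the middle. Above them were the genes of T cells (0.893), slow fibres (0.857), adipocytes (0.731), Schwann cells (0.712), fast fibres (0.597), tendon (0.571), macrophages (0.557) and the collagens and matrix (0.495). Below them were the genes of endothelium (0.278), satellite cells (0.226) and mural cells (0.181), the further fibroblast and FAP markers (0.163), the other small leucine-rich proteoglycans (0.136), the other Ly6 genes (0.098), the TGF-beta genes (0.046) and the other PDGF genes (-0.03).

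**Figure D3:**
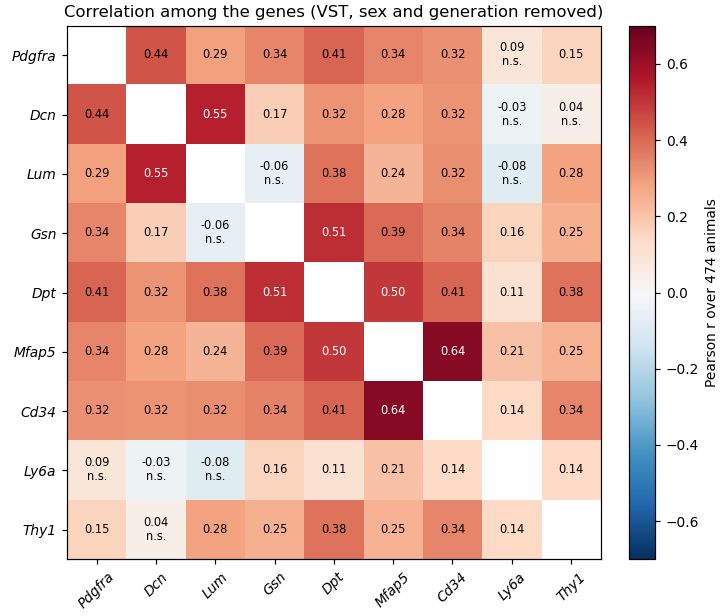
Pearson r of each pair of the 9 genes over all animals, from the VST after removal of sex and generation. Colour gives r from blue (negative) to red (positive), and n.s. marks the 5 pairs with an adjusted p of 0.05 or more. Mfap5 and Cd34, Dcn and Lum, and Gsn and Dpt exceed 0.5, and the row of Ly6a is the palest.

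The strongest pair was Mfap5 and Cd34, with r = 0.64 (rho = 0.61). Next came the neighbours Dcn and Lum, with r = 0.55 (rho = 0.51), then Gsn and Dpt, with r = 0.51 (rho = 0.50), and Dpt and Mfap5, with r = 0.50 (rho = 0.50). Each of these had an adjusted permutation p of 1.44e-05 for r and 1.57e-05 for rho, which rest on the smallest p the permutations can give, 1e-05. Without the 2 animals farthest from the median they were 0.63, 0.53, 0.51 and 0.51. Each was called within all 5 blocks, where r was 0.55 to 0.77 for Mfap5 and Cd34, 0.43 to 0.63 for Dcn and Lum, 0.38 to 0.61 for Gsn and Dpt, and 0.40 to 0.64 for Dpt and Mfap5. Among all 18822 other genes ordered by r, Mfap5 ranked 3 for Cd34, and Cd34 ranked 4 for Mfap5.

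Dcn and Lum therefore rose and fell together over animals of one sex while their means differed between the sexes in opposite directions. Within females r was 0.53, and within males it was 0.57. In the plot of both genes, males lie on the whole at more Dcn and less Lum.

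Ly6a stood farthest from the others. Its mean r with the other 8 genes was 0.09, against 0.23 to 0.38 for the rest, and its highest was 0.21, with Mfap5. With T cell, macrophage and tendon scores removed, that highest r was 0.07, and no positive correlation of Ly6a passed the test. The 5 pairs that were not called were Pdgfra and Ly6a (r = 0.09, adjusted p = 0.0641), Lum and Ly6a (-0.08, 0.0761), Lum and Gsn (-0.06, 0.237), Dcn and Ly6a (-0.03, 0.455) and Dcn and Thy1 (0.04, 0.410). Some of these calls turned on the setting. Pdgfra and Ly6a passed with block and total count removed (r = 0.11, adjusted p = 0.0152) and by rank (rho = 0.10, adjusted p = 0.0371). Dcn and Thy1 passed without the 34 libraries of high T cell genes (r = 0.13, adjusted p = 0.00862), and Lum and Gsn were inversely correlated with adipocyte, endothelial and slow-fibre scores removed (r = -0.12, adjusted p = 0.0109). A second component, with 15.6% of the variance, set Lum and Dcn (loadings 0.54 and 0.49) against Ly6a and Gsn (-0.48 and -0.39). Within single blocks, Dcn and Ly6a ran from -0.13 to 0.25, Lum and Ly6a from -0.26 to 0.13, and Pdgfra and Ly6a from 0.04 to 0.28. Each of these pairs passed the test in 1 of the 5 blocks, Lum and Ly6a inversely in block 5. Lum and Gsn ran from -0.21 to 0.16 and passed in 0 blocks, as did Dcn and Thy1.

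The correlations were also compared between the sexes. None of the 36 differences passed the test (permutation of sex labels, adjusted over 36 pairs), and 3 had an unadjusted p under 0.05. These were Lum and Thy1 (r = 0.39 in females and 0.11 in males, adjusted p = 0.0880), Pdgfra and Thy1 (0.24 and 0.01, adjusted p = 0.0880) and Lum and Cd34 (0.43 and 0.19, adjusted p = 0.168).

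Outside the 9 genes, the nearest genes of each were taken as the 3 of highest r over all animals. Genes with r of at least 0.5 were few for Ly6a (0.00531% of 18822 genes), Pdgfra (0.0106%), Lum (0.0106%), Dcn (0.0584%), Gsn (0.0797%), Mfap5 (0.106%) and Cd34 (0.128%), and more for Dpt (0.611%) and Thy1 (0.882%). These shares include the other members, 1 of which was counted for each of Lum, Dcn, Gsn, Mfap5, Cd34 and Dpt. Over all pairs of genes the share was 0.355%.

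Mfap5 and Cd34 shared all 3 nearest genes: the secreted glycoprotein Fstl1 (r = 0.69 and 0.71), the fibrillin Fbn1 (0.65 and 0.65) and the receptor kinase Axl (0.65 and 0.62). Dcn was nearest to Itgbl1 (0.62), Ogn (0.61) and Ecm2 (0.61), of which Ogn encodes a further small leucine-rich proteoglycan. Lum was nearest to Abi3bp (0.57), Colec12 (0.48) and Dsel (0.47). Among the genes nearest to Pdgfra were Rnase4 (0.50) and the scavenger receptor Scara5 (0.50). Gsn was nearest to the endocytic receptor Lrp1 (0.64), the protease Htra3 (0.63) and the complement inhibitor Serping1 (0.60).

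Dpt was nearest to Ccdc80 (0.74), Tenm4 (0.69) and Plin1 (0.68), the last of which encodes the coat protein of adipocyte lipid droplets. Ly6a was nearest to Ly6e (0.64), a gene of the same cluster that lies 34972 bases away at chr15:74955051-74959905, with Ly6i between them, and then to Ifitm3 (0.50) and Stat2 (0.43), both known as genes of the interferon response. Ly6a and Ly6e belong to a family of related sequences, and how reads shared between its members were divided was not examined. Thy1 was nearest to Tmsb10 (0.61), Adcy7 (0.61) and Cotl1 (0.60).

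The 9 genes were then set against the mean of other gene lists, again after removal of sex and generation. With this many animals a weak correlation passes the test, and all values called had r of at least 0.0999 in either direction. The share of all other tested genes past that limit is therefore given beside the counts. Further fibroblast and FAP markers were positively correlated with all 9, against 17.6% of other genes, from r = 0.21 (Ly6a) to 0.67 (Mfap5). Collagen and matrix genes were too, against 17.3%, from 0.12 (Ly6a) to 0.62 (Cd34). The other small leucine-rich proteoglycans were positively correlated with 8 of 9, against 21.4%, and tendon genes with 6 of 9, against 12.6%. Within this, the genes parted by partner. Dcn had r = 0.70 with the other small leucine-rich proteoglycans (rho = 0.68) and 0.41 with tendon genes, but only 0.20 with collagen and matrix genes. Mfap5 and Cd34 had 0.60 and 0.62 with collagen and matrix genes. These values of Dcn, Mfap5 and Cd34 had an adjusted p of 2.88e-05, except 5.24e-05 for Dcn with collagen and matrix genes (permutation test, adjusted over all pairs of gene and list).

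Dpt had r = 0.67 (rho = 0.66) with adipocyte genes, Gsn 0.39 and Thy1 0.26, and 6 of the 9 were positively correlated, against 22.3% of other genes, while Dcn (0.01, adjusted p = 0.780) and Cd34 (0.05, adjusted p = 0.294) did not pass the test. Macrophage genes were positively correlated with all 9, against 21.9% of other genes, from 0.15 (Dcn) to 0.57 (Dpt), and they were the list of highest r for Ly6a (0.35). The macrophage sum was 41.7 to 140.7 CPM in females and 32.5 to 145.01 CPM in males. Removal of T cell, macrophage and tendon scores lowered the median r of the 36 pairs from 0.302 to 0.193. In that fit 24 pairs were positively correlated and 4 negatively (Lum and Gsn at -0.21, Lum and Ly6a at -0.17, Dpt and Ly6a at -0.12, and Dcn and Ly6a at -0.11).

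Endothelial genes, with which 20.2% of other genes were positively and 21.9% inversely correlated past the limit, divided the set: r was 0.18 for Cd34 and 0.19 for Ly6a, but -0.21 for Lum, -0.18 for Dcn and -0.15 for Dpt. Mural genes were correlated with Cd34 (0.27) and inversely with Lum (-0.13) and Pdgfra (-0.11), against 16.0% and 22.8% of other genes. The list of PDGF ligands and the other PDGF receptor was correlated with Cd34 (0.23), and none of the other 8 genes passed the test, Pdgfra included (-0.05, adjusted p = 0.293), where 17.1% of other genes were positively correlated past the limit. The TGF-beta list was correlated with all but Ly6a, against 18.6% of other genes, most with Gsn (0.33). Schwann cell genes were correlated with 5 of 9, against 8.86%, most with Gsn (0.23). The other Ly6 genes were correlated with Ly6a (0.22), Thy1 (0.22) and Gsn (0.11), against 22.1% of other genes. Fast-fibre genes were inversely correlated with 7 of 9, against 31.4% of other genes, most with Cd34 (-0.25), while Gsn (0.08) and Dcn (-0.08) did not pass the test. Slow-fibre and satellite cell genes stayed within -0.13 and 0.12 throughout. Slow-fibre genes were positively correlated with 1 gene (6.7% of other genes) and inversely with 2 (6.99%), and satellite cell genes positively with 1 (11.1%) and inversely with 4 (15.6%).

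**Figure D4:**
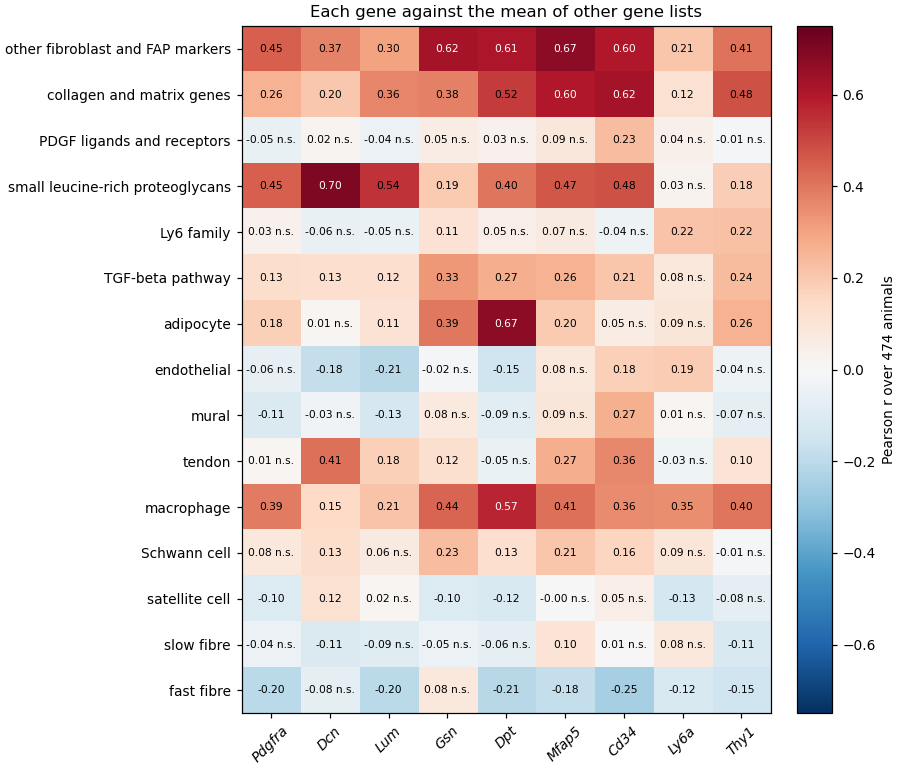
Pearson r of each of the 9 genes (columns) with the mean standardised residual of each of 15 other gene lists (rows) over all animals. Colour gives r from blue (negative) to red (positive), and n.s. marks an adjusted p of 0.05 or more. Dcn stands out with small leucine-rich proteoglycans (0.70), Dpt with adipocyte genes (0.67), and Mfap5 and Cd34 with collagen and matrix genes (0.60 and 0.62).

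T cell genes are left out of that comparison because a few libraries with high values spread over most of their range. In 440 libraries the 6 genes summed to 0.0609 to 3.20 CPM, and in the other 34 to 4.29 to 123.001 CPM, and the limit of 4 CPM between them was set after the values were seen. These 34 libraries came from all 5 generations and all 5 blocks. Among them Thy1 had r = 0.83 with the T cell list (adjusted p = 9.00e-05 for r, rho = 0.83 with adjusted p = 0.00018, permutation test over 18 values), and r = 0.79 without the 2 libraries farthest from the median. In the other 440 it had r = 0.08 (adjusted p = 0.308, rho = 0.11 with adjusted p = 0.0581). The split was made on the T cell sum itself, and 3 of the 6 genes (Cd3g, Cd8a and Lck) had medians below 0.1 CPM over all libraries. With so low and narrow a range, the r in the 440 cannot show that Thy1 and T cell genes were unrelated there. Of the 10 libraries with the most Thy1, all from females, 9 were among the 34. The medians of other cell type sums differed there as well, higher for adipocyte and macrophage genes and lower for tendon and mural genes. In those 10 libraries the median sum was 598.8 CPM for adipocyte genes, 304.01 CPM for tendon genes, 95.4 CPM for macrophage genes and 716.5 CPM for mural genes, against 240.1, 376.97, 76.8 and 823 CPM in the females of low T cell genes. In all 34 libraries the median adipocyte sum was 537.3 CPM in females and 434.5 CPM in males, and the ranges overlapped those of the other libraries. The part of each cell type in the Thy1 level was not tested. Median Thy1 was 12.5 CPM in the 24 females and 7.56 CPM in the 10 males of high T cell genes. Cd34 had r = -0.54 with the T cell list in the 34 libraries (adjusted p = 0.00696, permutation test) and 0.07 in the 440.

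Thy1 was the gene whose partners changed most without those libraries. Its 3 nearest genes became the collagens Col6a2 (r = 0.61), Col15a1 (0.56) and Col6a1 (0.55), in place of Tmsb10, Adcy7 and Cotl1, and 12 of the 18822 other genes had r of at least 0.5, a smaller share than the 0.882% in all libraries. Its r with Cd34 was 0.51 instead of 0.34, and that with Mfap5 was 0.36 instead of 0.25. The nearest genes of Dcn, Gsn, Mfap5, Cd34 and Ly6a were the same 3 in both sets of libraries. For Lum, Dclk1 (0.54) and Wipf1 (0.51) took the place of Colec12 and Dsel. For Pdgfra, Mrc1 (0.51) and Ogn (0.51) took the place of Rnase4 and Scara5. For Dpt, Dram1 (0.68) took the place of Tenm4. Of the 36 pairs, 33 were called without the 34 libraries, and the same 8 genes were called between the sexes.

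**Figure D5:**
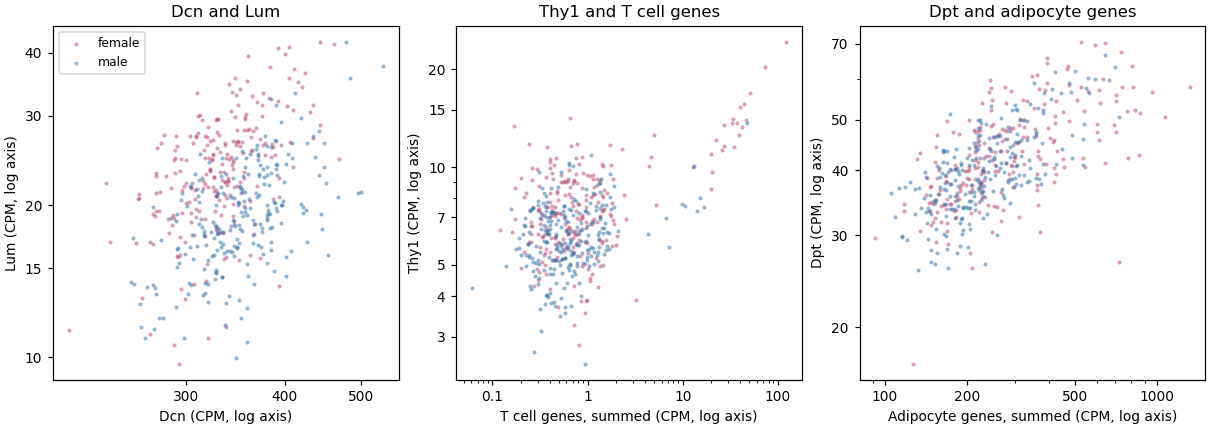
CPM per library on log axes, coloured by sex: Lum against Dcn (left), Thy1 against the summed T cell genes (middle) and Dpt against the summed adipocyte genes (right). Males have more Dcn and less Lum. Thy1 had r = 0.83 with the T cell genes in the 34 libraries where these exceed 4 CPM and 0.08 in the other 440, where their range is low and narrow. Dpt had r = 0.67 with the adipocyte genes after removal of sex and generation.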

How the data were processed

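Muscle RNA of 1 library per animal was sequenced after poly(A) selection. Per the study's methods, the authors estimated counts per gene with EMASE and GBRS against transcriptomes of the 8 founders, treating both read ends as single reads, so the deposited expected counts are estimates in read ends. Of these, 68.6% were whole within 1e-06. The second deposited table holds scores, which are the DESeq2 variance stabilising transform (VST) of these counts by the authors, from 5.24 to 22.9. The study's methods describe removal of RNA-seq batch effects in a mixed model that kept sex and generation, and they do not say whether the deposited tables are from before or after that step. Positions are on GRCm38, and whether counting used strand is not stated.

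Sex and the number read as generation came from the sample titles. Blocks are runs of consecutive library numbers in the titles, of at most 96 libraries, and no label calls them plates. The columns of 4 libraries stand out of the order of the samples in each matrix, and column names, not order, were used. All columns of per-sample values were matched. No batch or wave is in the labels used here.

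Counts were rounded. Genes passing filterByExpr (minimum count 10) numbered 18823, and 1789 were removed. Sex (with generation), generation (with sex), their interaction and block were tested with the quasi-likelihood F-test of edgeR 4.0.16 after TMM scaling (factors 0.871 to 1.29), with Benjamini-Hochberg adjustment over all tested genes and a threshold of 0.05. Limma 3.58.1 and DESeq2 1.42.0 were alternatives. Correlations used VST residuals after sex and generation, with block and total count removed as well in an alternative, and 2-sided permutation tests with 100000 resamples (smallest p 1e-05), in Python 3.11.15 with scipy 1.17.1. Other alternatives were total-count scaling, other count filters, block and cell type scores as covariates, and fits within generations, blocks or sexes. On simulated counts for the sex comparison of 18823 genes, 32%, 76%, 82% and 98% of genes changed 1.1-, 1.2-, 1.3- and 1.5-fold were recovered, and 0.0430% of unchanged genes were called. The simulation changed only a small part of the genes and drew them independently, with spread set by the trend over genes. In the data 55.0% of tested genes were called, so these rates need not hold there.

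The genes named are the 9 members, the 3 non-member genes nearest to each by r, the called gene with the largest sex difference in each direction in the lists discussed, and promoter motifs. Members and lists were chosen with earlier results of these data known. The nearest genes without the libraries of high T cell genes, and the 4 CPM limit, were added after values were seen. Ly6d, Ly6h and Cd3d were not analysed here, and 1 of the nearest genes is not reported here. Replicates are separate animals. Counts are of reads without molecular identifiers.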

Additional observations from a re-analysis of the deposited data

How the results depend on the processing

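No paired analysis was possible because each animal has its own number and belongs to 1 group. The 8 calls between the sexes numbered 8 also with DESeq2, limma, block as covariate, either other count filter, and without the 5 libraries whose Xist and Ddx3y levels were outside the limits set for the labelled sex. In these fits 51.6% to 64.2% of all tested genes were called. Scaling by total count alone called 9, against 57.4% of all tested genes. It moved the share of higher genes among all called genes from 44.3% to 30.8% and the median of all genes from -0.01 to -0.05. Within generations 17, 18, 19, 21 and 23 the number called was 4, 3, 4, 4 and 4, and within blocks 1 to 5 it was 5, 3, 6, 6 and 4, with fewer animals in each fit. The difference turned to 0.012 for Dpt with adipocyte, endothelial and slow-fibre scores as covariates, to 0.016 for Cd34 within generation 18 and to 0.012 for Gsn within block 2, and none of these 3 passed the test. Of the 2 calls between generations, the count was 4 with total count alone, 0 with the adipocyte, endothelial and slow-fibre scores, 1 with T cell, macrophage and tendon scores, 0, 0, 0, 0 and 1 within blocks 1 to 5, 0 within males and 1 with limma, and the cause was not tested. The shares of all tested genes called in these fits, in the same order, were 8.88%, 7.52%, 7.15%, 0.430%, 0.478%, 0.935%, 0.324%, 0.287%, 2.76% and 6.87%. The calls between blocks numbered 5 with either scaling, of which Dcn, Gsn and Ly6a were called with both. Of the 36 pairs, 19 were called within block 1 and 19 within block 5, against 31 over all animals. With T cell, macrophage and tendon scores removed, r turned to -0.0026 for Gsn and Ly6a and to -0.12 for Dpt and Ly6a. Within single blocks r turned to -0.028 for Dcn and Gsn (block 1), to 0.25 for Dcn and Ly6a (block 4) and to -0.030 for Pdgfra and Lum (block 5). The T cell, macrophage and tendon scores and the removal of libraries of high T cell genes were chosen after seeing the data. Depth limited Thy1 most, with the lowest count of 136.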
